A study of Arabidopsis thaliana with 18 samples.

Results

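The comparison described here is that of total small RNA after recovery with total small RNA at the end of heat stress (HS), in 6 of the 18 libraries of the series. Recovery libraries came from 7-day-old Col-0 seedlings of Arabidopsis thaliana heated for 1 h at 37 °C and then returned to 22 °C for 2 h (n = 3). HS libraries came from seedlings of the same age and genotype taken at the end of the 1 h at 37 °C (n = 3). Unheated control seedlings (n = 3) carry no agent or allele of their own and are quoted as the background level. Members were chosen by file and not by their values: all 422 listed miRNAs, their sums by family and arm, and all 6242 listed positions of the 7 trans-acting siRNA (TAS) loci. The remaining 9 libraries were AGO1 immunoprecipitates and enter at a single place in the closing section. The samples are whole seedlings of a single genotype, so organs and cell types are mixed, and fewer cells of a type and less RNA per cell cannot be told apart. The labels were not checked against a list of markers. Levels of miR398, a miRNA known for responding to heat, are given with the copper group.

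miRNAs are cut by DICER-LIKE1 (DCL1) from hairpin precursors as a duplex. The guide strand is kept in an ARGONAUTE protein, mostly AGO1, where it directs slicing or translational repression of complementary mRNAs, and the passenger strand is normally discarded. Trans-acting siRNAs (tasiRNAs) start from the same machinery: a miRNA-loaded ARGONAUTE cleaves a TAS transcript, RDR6 with SGS3 makes it double-stranded, and DCL4 cuts it in steps from the cleavage site. AGO1 itself is targeted by miR168, DCL1 by miR162 and AGO2 by miR403, so small RNA levels and the machinery are linked. In plants miR398, which targets copper superoxide dismutases and their chaperone, is the miRNA best known for responding to heat, and the tasiRNAs of TAS1 target heat-induced genes.

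miRNA reads numbered 351515, 714337 and 640609 in recovery libraries 1 to 3, against 321918, 492149 and 737888 in HS libraries. Between 324 and 341 of the listed miRNAs had reads in a recovery library, and between 324 and 348 in an HS library. Levels below are reads per 1000000 miRNA reads (RPM), so each is a share of the miRNA reads and a change in an abundant miRNA moves the others. Libraries with the same replicate number varied together, and are called pairs. The replicate 3 libraries stood apart from the others in some miRNAs: miR172 guides, for example, were at 163.9 RPM in recovery and 136.9 RPM in HS there, against 4509 to 15132 RPM in the other 4 libraries. Recovery replicate 1 had the fewest TAS reads per miRNA read of the 6 libraries. The study describes its replicates as biological, and the labels do not say how they were grown, so p-values measure the spread between these samples.

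The sequences on which the comparison turns are given 5′ to 3′ from RefSeq (TAIR10.1), with the seed, bases 2 to 8, in capitals. The guides of miR156 and miR157 hold the same stretch, shifted by a base, and the passengers of miR157 share a seed, as do both miR158 guides. The set was kept to sequences called with the block (miR157a-3p, miR158, miR168b-3p, miR2112-5p and miR865-5p), guides or relatives of these, and 4 guides whose families are described in detail below (miR156, miR159, miR319 and miR173).
miR156a-5p: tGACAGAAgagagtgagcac
miR157a-5p: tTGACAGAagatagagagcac
miR157a-3p: gCTCTCTAgccttctgtcatc
miR157c-3p: gCTCTCTAtacttctgtcacc
miR158a-5p: cTTTGTCTacaattttggaaa
miR158a-3p: tCCCAAATgtagacaaagca
miR158b: cCCCAAATgtagacaaagca
miR168b-3p: cCCGTCTTgtatcaactgaat
miR2112-5p: cGCAAATGcggatatcaatgt
miR865-5p: aTGAATTTggatctaattgag
miR159a: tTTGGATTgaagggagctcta
miR319a: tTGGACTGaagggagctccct
miR173-5p: tTCGCTTGcagagagaaatcac

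Of the 422 listed miRNAs, 229 passed the filter on low counts and were tested with edgeR's quasi-likelihood test. No miRNA differed between recovery and HS at an adjusted p of 0.05 (0%), 7 had an unadjusted p under 0.05 (3.06%), and DESeq2 also called 0, with 8 at an unadjusted p under 0.05. With the replicate number as a block, 0 were called and 38 had an unadjusted p under 0.05 (16.6%), 19 higher and 19 lower. When the block was fitted on the 6 libraries alone, 11 of 216 were called (5.09%). Of these 11, miR156f-5p, miR156f-3p, miR157a-3p, miR157b-3p, miR167a-3p, miR168b-3p and miR2112-5p were higher after recovery, and miR158b, miR172c, miR3933 and miR8121 were lower. Recovery and HS did not overlap for 8 miRNAs above (3.49%) and 4 below (1.75%). Across the 229, 108 had a log2 fold change above 0 and 121 below 0, with a median of −0.05. Of the 229, 53 were higher in 3 of 3 pairs (23.1%) and 35 were lower in 3 of 3 pairs (15.3%).

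**Figure D1:**
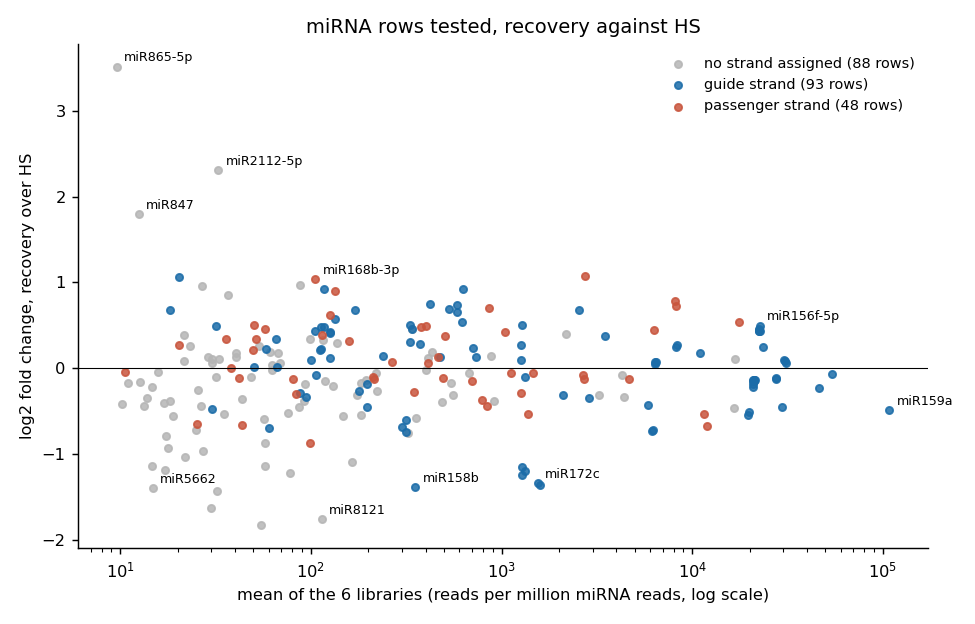
Log2 fold change of recovery over HS (edgeR, vertical axis) against the mean level over the 6 libraries (RPM, log axis) for the 229 tested miRNAs, with 93 guides, 48 passengers and 88 with no strand assigned. The widest fold changes lie among the low miRNAs, with miR865-5p at 3.51 the highest and miR3933 at −1.83 the lowest.

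Many listed miRNAs share a mature sequence with another copy (121 of 422), and the counts of such copies were nearly equal. In 24 groups of identical sequence with at least 1000 reads, the copy with the most reads had at most 1.12 times the reads of the copy with the fewest. Levels of single copies such as miR156f-5p are therefore uncertain, and sums by distinct sequence or by family and arm are the firmer quantity. Counts of entries in a family or group below include such copies, which are not separate measurements. Among 182 distinct sequences, 0 were called without the block (0%, 6 or 3.3% at an unadjusted p under 0.05) and 5 with it (2.75%). Higher were miR2112-5p, miR168b-3p, miR865-5p and the sequence of miR157a-3p and miR157b-3p, and lower was miR158b. For miR2112-5p, miR168b-3p, miR865-5p and miR158b the sequence holds the same reads as the single miRNA. As single miRNAs they were not called, with edgeR adjusted p of 0.0564, 0.0722, 0.0564 and 0.0564 with the block. The fits differ in scaling factors and in the number of features tested. Among 150 sums by family and named arm, 0 were called without the block (0%, 9 or 6% at an unadjusted p under 0.05) and 3 with it (2%). The 3 were miR2112-5p, miR158-5p and miR865-5p, all higher after recovery. With unnamed arms placed by the precursor, giving 136 strand sums, 0 were called without the block and 2 with it (1.47%), miR2112-5p and miR158-5p. The block calls depended on which pairs were kept: without pair 3 the block fit called 0 miRNAs, 0 sequences and 0 sums, without pair 2 it called 0, 0 and 6, and without pair 1 it called 3, 3 and 4.

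miR2112-5p, called with the block as a sum and as a sequence that hold the same reads, is cut from AT1G04027 (chr1:234126-234146, minus strand). As a single miRNA, on these reads as well, its edgeR adjusted p was 0.440 without the block and 0.0564 with it. It stood at 39.8, 57.4 and 65.6 RPM after recovery, against 15.5, 12.2 and 5.42 RPM at the end of HS, and 26.3, 17.0 and 36.6 RPM in control seedlings. All recovery libraries were above all HS libraries, and the lowest HS library was replicate 3. The mean was 4.91-fold higher after recovery, with a log2 fold change of 2.51 ± 0.50 (SE) as a family sum and an edgeR adjusted p of 0.0725. With the replicate block it rose by 2.57 ± 0.49 on the log2 scale, at an edgeR adjusted p of 0.0175. Without pair 3 the block fit gave an edgeR adjusted p of 0.369. Reads behind these levels were few, 14, 41 and 42 in recovery and 5, 6 and 4 in HS. miR2112-5p passed the filter on low counts through recovery and control libraries, and not through any HS library. In the fit on the 6 libraries alone it passed through recovery libraries only, so its selection there favours a higher level after recovery.

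miR865-5p (chr5:5169998-5170018, plus strand, AT5G15833) was rarer still, at 5.69, 26.6 and 20.3 RPM after recovery, against 3.11, 2.03 and 0 RPM at the end of HS. Control seedlings had 8.76, 17.0 and 17.2 RPM. miR865-5p passed the filter on low counts through recovery and control libraries, and not through any HS library. Over the group, 34 reads in recovery stood against 2 reads in HS, a ratio per miRNA read of 15.5 with a 95% exact interval of 3.96 to 133 that covers counting error only. The edgeR adjusted p as a family sum was 0.149 without the block and 0.0496 with it, and the fitted fold change of so rare a miRNA depends on the prior count. Without pair 1 the block fit gave an edgeR adjusted p of 0.0252. Without pair 2 or 3, and on the 6 libraries alone, miR865-5p did not pass the filter and was not tested.

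miR847, which targets the auxin repressor IAA28, and miR842, which targets lectin genes of the jacalin type, were other low miRNAs with higher levels after recovery. miR847 was at 19.9, 23.8 and 15.6 RPM after recovery, against 3.11, 10.2 and 2.71 RPM at the end of HS, and the groups did not overlap (log2 fold change 1.79 ± 0.66, edgeR adjusted p = 0.859). miR842 was at 159.3, 64.4 and 133 RPM after recovery, against 46.6, 56.9 and 65.1 RPM at the end of HS. It was higher in 3 of 3 pairs with an overlap between groups, since recovery replicate 2 lay just below HS replicate 3 (log2 fold change 0.97 ± 0.43). Neither passed the test with or without the block. miR847 passed the filter on low counts through recovery and control libraries, and not through any HS library.

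**Figure D2:**
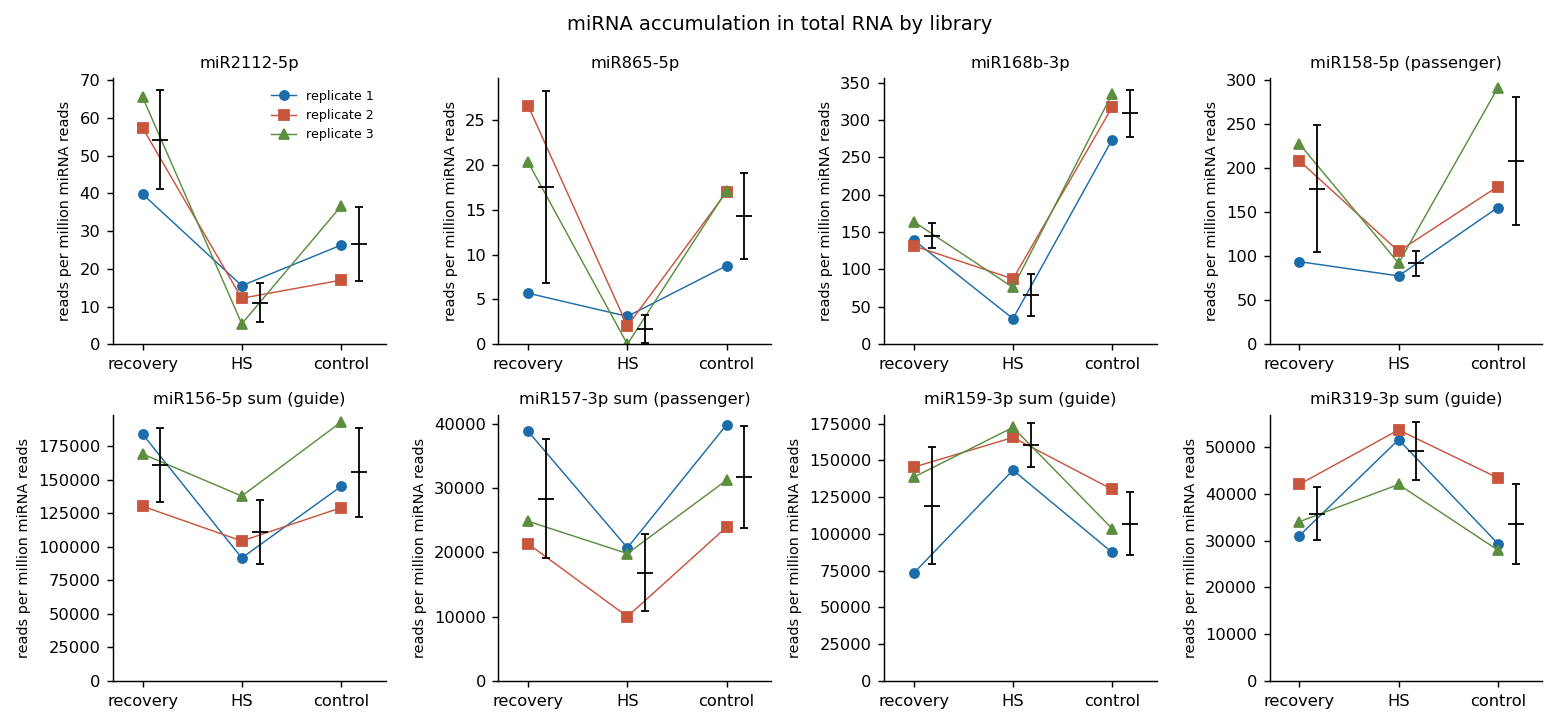
Level (RPM, vertical axis) of 4 single miRNAs and 4 family strand sums in each library, with recovery left, HS in the middle and control right. Points are libraries joined by replicate number, and the bar is the mean with its SD (n = 3). miR2112-5p, miR865-5p and miR168b-3p show no overlap between recovery and HS, and each line for the miR156-5p sum is higher in recovery than in HS.

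Of the regulators of silencing proteins (miR168, miR162 and miR403, 10 listed), all 10 had a log2 fold change above 0, beside 108 of 229 for all tested. Their median was 0.23 beside −0.05 for all tested. The 2 miR168 guides are copies of 1 sequence, as are the 2 miR162 guides. Without the block 0 were called, and with the block on the 6 libraries alone 1 was called, the passenger miR168b-3p. The guide sum of miR168, the regulator of AGO1, was at 15268, 11696 and 13038 RPM after recovery, against 13985, 10501 and 12044 RPM at the end of HS. Each pair differed in the same direction, and the groups overlapped. The miR162 guide sum, directed at DCL1, was at 2068, 1322 and 1353 RPM after recovery, against 1376, 1656 and 915 RPM at the end of HS. The miR403 guide sum, directed at AGO2, was at 3832, 8712 and 7852 RPM after recovery, against 3833, 7164 and 7561 RPM at the end of HS. For these guides the differences between recovery and HS were smaller than those between replicates of a group.

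The passenger strand miR168b-3p (chr5:18358803-18358823, minus strand) showed a wider difference than its guide sum. It was at 139, 132 and 163.9 RPM after recovery, against 34.2, 87.4 and 75.9 RPM at the end of HS, and 274, 317 and 335 RPM in control seedlings. The 3 groups did not overlap, with HS lowest and control highest. As a distinct sequence its log2 fold change was 1.14 ± 0.40 (edgeR adjusted p = 0.676), and with the block it rose by 1.17 ± 0.32 (edgeR adjusted p = 0.0353). Without pair 1, 2 or 3 the block fit did not call it (edgeR adjusted p = 0.478, 0.204 and 0.208). The other passenger, miR168a-3p, was at 1087, 304 and 384 RPM after recovery, against 513, 354 and 401 RPM at the end of HS, and was higher in 1 of 3 pairs.

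miR156 and miR157 target SPL transcription factors, which promote the change from the juvenile to the adult phase, and miR172, which targets AP2-like genes, acts later in the same pathway. Of the 30 listed miRNAs of these families 29 were tested, 19 had a log2 fold change above 0, and 16 were higher in 3 of 3 pairs with 2 lower in 3 of 3 pairs. The median was 0.29. Of all 229 tested, 53 were higher and 35 lower in 3 of 3 pairs. Among the 30, 6 are copies of 1 miR156 guide, 3 of 1 miR157 guide and 2 of 1 miR157 passenger. Without the block 0 were called. The miR156 guides are among the most abundant miRNAs of the seedling. Their sum was at 184032, 130268 and 169228 RPM after recovery, against 91703, 104328 and 137876 RPM at the end of HS, and 145002, 129113 and 192910 RPM in control seedlings. It was higher in 3 of 3 pairs, while HS replicate 3 lay above recovery replicate 2. The log2 fold change was 0.72 ± 0.28 (edgeR adjusted p = 0.612, and 0.252 with the block), and it was called when the block was fitted on the 6 libraries alone (edgeR adjusted p = 0.0075). By RPM, with no scaling factor, the pairs differed by 1.00, 0.32 and 0.30 on the log2 scale, and the single guides had a median of 0.44. Without pair 1 the block fit gave a log2 fold change of 0.33.

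The guides of miR157 differed little, at 93532, 96399 and 104485 RPM after recovery, against 81129, 86258 and 97847 RPM at the end of HS (log2 fold change 0.32 ± 0.24). As single miRNAs, with other scaling factors, they had log2 fold changes from 0.07 to 0.10. The miR157 passengers differed more. Their sum was at 38826, 21322 and 24847 RPM after recovery, against 20723, 10019 and 19820 RPM at the end of HS, and 39876, 23955 and 31251 RPM in control seedlings. All recovery libraries were above all HS libraries, by a small margin for recovery replicate 2. The log2 fold change was 0.95 ± 0.40 (edgeR adjusted p = 0.637, 0.174 with the block and 0.0075 with the block on the 6 libraries alone). The passenger sequence shared by miR157a-3p and miR157b-3p was at 29282, 14395 and 19126 RPM after recovery, against 13823, 6075 and 15150 RPM at the end of HS, and with the block it rose by 0.87 ± 0.25 (edgeR adjusted p = 0.0423). Without pair 1, 2 or 3 the edgeR adjusted p of that sequence was 0.332, 0.207 and 0.208. The sequence of miR157c-3p, which has the same seed, was at 9544, 6927 and 5721 RPM after recovery, against 6899, 3944 and 4670 RPM at the end of HS, again higher in 3 of 3 pairs.

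A further passenger of the phase change group, miR156f-3p, was at 6486, 2629 and 2262 RPM after recovery, against 2833, 386 and 1866 RPM at the end of HS (log2 fold change 1.08 ± 0.59). HS replicate 2 was far below the other libraries. miR172, whose miR172a, miR172c and miR172e-5p each share a sequence with another entry, had log2 fold changes below 0 in all 7 tested entries. Its guide sum was at 8250, 4509 and 163.9 RPM after recovery, against 13966, 15132 and 137 RPM at the end of HS (log2 fold change −0.82 ± 1.81, edgeR adjusted p = 0.933). The order held in pairs 1 and 2 and was turned in pair 3, where both libraries had little miR172. The passenger miR172e-5p was at 54.1, 35 and 34.3 RPM after recovery, against 52.8, 56.9 and 19 RPM at the end of HS. miR157d was at 1724, 1100 and 1219 RPM after recovery, against 1413, 996 and 1167 RPM at the end of HS.

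Among the miRNAs known to target genes for pentatricopeptide repeat (PPR) proteins (miR158, miR161 and miR400), a passenger of miR158 was higher after recovery and a guide of the other miR158 precursor was lower. The passenger miR158-5p was at 93.9, 209 and 228 RPM after recovery, against 77.7, 106 and 92.2 RPM at the end of HS, and 155, 179 and 292 RPM in control seedlings. It was higher in 3 of 3 pairs, and recovery replicate 1 lay among the HS libraries. The log2 fold change was 1.08 ± 0.38 (edgeR adjusted p = 0.594), and with the block it rose by 1.06 ± 0.25 (edgeR adjusted p = 0.0496). Without pair 2 or 3 it was not called (edgeR adjusted p = 0.138 and 0.369). The guide miR158b (chr1:20772273-20772292, plus strand) was at 341, 252 and 20.3 RPM after recovery, against 522, 941 and 44.7 RPM at the end of HS. It was lower in 3 of 3 pairs, with both replicate 3 libraries far below the rest. As a distinct sequence its log2 fold change was −1.23 ± 1.34 (edgeR adjusted p = 0.893), and with the block it fell by 1.26 ± 0.32 on the log2 scale (edgeR adjusted p = 0.0265). Without pair 2 or 3 that call was lost as well (edgeR adjusted p = 0.299 and 0.208), and without pair 2 the log2 fold change was −0.79.

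The main miR158 guide, miR158a-3p, was at 3266, 5251 and 6903 RPM after recovery, against 3237, 9156 and 7410 RPM at the end of HS. The miR161 sum was lower in 3 of 3 pairs, at 43196, 78390 and 68062 RPM after recovery, against 55893, 86577 and 71000 RPM at the end of HS. The miR400 sum was higher in 3 of 3 pairs, at 3761, 18935 and 13139 RPM after recovery, against 3032, 15189 and 12122 RPM at the end of HS. Replicate number separated these libraries more than treatment did, with replicate 1 lowest for miR400 in recovery, HS and control alike. None of the 3 passed the test. By single miRNA, miR161.2 was at 26047, 56987 and 47875 RPM after recovery, against 32232, 63324 and 52062 RPM at the end of HS.

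miR159 and miR319, related in sequence, target GAMYB and TCP transcription factors. Of 7 listed and tested, 6 had a log2 fold change below 0 and all 6 were lower in 3 of 3 pairs, with a median of −0.45 beside −0.05 for all tested. Of all 229 tested, 35 were lower in 3 of 3 pairs. The groups did not overlap for miR159b-3p, miR319a and miR319b, and 0 were called in any fit. miR319a and miR319b are copies of 1 sequence. The most abundant, miR159a (chr1:27713234-27713254, minus strand), was at 56137, 110872 and 108523 RPM after recovery, against 108170, 128563 and 137007 RPM at the end of HS, and 65678, 98974 and 80757 RPM in control seedlings. Recovery replicate 1 was the lowest of the 6. Its log2 fold change was −0.49 ± 0.31 (edgeR adjusted p = 0.897, and 0.0564 with the block).

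miR319a (chr4:12353109-12353129, plus strand) was at 14369, 19204 and 15549 RPM after recovery, against 24466, 24911 and 19399 RPM at the end of HS, with a log2 fold change of −0.54 ± 0.27. The passenger miR159b-5p was at 62.6, 28.0 and 26.5 RPM after recovery, against 55.9, 52.8 and 4.07 RPM at the end of HS, and 239, 102 and 210 RPM in control seedlings, so recovery and HS overlapped below all controls. Summed over the family, the miR159 guides were at 73385, 145434 and 138656 RPM after recovery, against 143381, 165617 and 172472 RPM at the end of HS. The miR319 guides were at 31037, 42017 and 34036 RPM after recovery, against 51569, 53657 and 41987 RPM at the end of HS. Here the sums gave log2 fold changes of −0.31 ± 0.28 and −0.29 ± 0.29. Both sums were lower in 3 of 3 pairs, and both overlapped between groups.

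miR160 and miR167 target auxin response factors and miR393 the TIR1/AFB auxin receptors. Of 15 tested, 12 had a log2 fold change above 0 and 8 were higher in 3 of 3 pairs, with a median of 0.28. Of all 229 tested, 53 were higher in 3 of 3 pairs. The 15 include 3 copies of 1 miR160 guide, 2 of 1 miR167 guide and 2 of 1 miR393 guide. All 6 miR167 entries were higher in 3 of 3 pairs. The miR167 guide sum was at 24759, 18857 and 20356 RPM after recovery, against 18943, 16105 and 15222 RPM at the end of HS (log2 fold change 0.55 ± 0.29). The miR167 passenger sum was at 30235, 15346 and 19101 RPM after recovery, against 17020, 8857 and 16249 RPM at the end of HS (log2 fold change 0.83 ± 0.39, edgeR adjusted p = 0.637). It was among the 7 of 127 strand sums called (5.51%) when the block was fitted on the 6 libraries alone (edgeR adjusted p = 0.0477). The miR160 guide sum was high in recovery replicate 1 alone, at 2267, 501 and 777 RPM after recovery, against 997, 920 and 539 RPM at the end of HS. For miR393, the 3p strand, counted here as passenger, holds nearly all reads. It was at 7616, 12613 and 10189 RPM after recovery, against 11177, 17954 and 12511 RPM at the end of HS, lower in 3 of 3 pairs.

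The HD-ZIP III regulators miR165 and miR166 had 12 of 13 log2 fold changes below 0, with a median of −0.14 and no entry that differed in the same direction in all pairs. Of the 13 entries, 7 are copies of 1 miR166 guide, 2 of 1 miR165 guide and 2 of 1 miR166 passenger. Their most abundant sum, the miR166 guides, was at 166940, 137603 and 124002 RPM after recovery, against 194627, 132094 and 127790 RPM at the end of HS, which differ less than replicates do. miR164b-3p, a passenger of a family directed at NAC genes, was at 28.4, 14.0 and 28.1 RPM after recovery, against 6.21, 18.3 and 27.1 RPM at the end of HS. Of 35 listed miRNAs directed at other transcription factors (miR164, miR169, miR170, miR171 and miR396), 30 were tested, 19 with a log2 fold change above 0. Of the 13 tested miR169 entries, which target NF-YA genes, 12 were above 0, and 3 were higher in 3 of 3 pairs. Among these entries 7 are copies of 1 sequence. miR396, which targets growth-regulating factors, had 80312, 81007 and 79752 RPM of guide after recovery, against 73621, 69715 and 81437 RPM at the end of HS. The guide miR396a-5p alone was at 56723, 51422 and 54620 RPM after recovery, against 54079, 48341 and 59517 RPM at the end of HS. Its passenger miR396a-3p was lower in 3 of 3 pairs, at 6301, 11654 and 10203 RPM after recovery, against 10956, 16184 and 16024 RPM at the end of HS (log2 fold change −0.68 ± 0.34, edgeR adjusted p = 0.859, and 0.0564 with the block).

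In the copper group (miR397, miR398, miR408 and miR857) 8 of 11 had a log2 fold change above 0, with a median of 0.68, and 0 were called without the block or with it. The 3 below 0 were the miR398 passengers, which held more reads than the guides. Passenger and guide reads of miR398 were 9633 and 2470 after recovery, against 8517 and 1420 at the end of HS. By RPM the pairs of the miR398 passenger sum differed by −0.39, 0.10 and 0.05 on the log2 scale. Recovery replicate 1 stood high for the guides below. The miR398 guide sum was at 3749, 774 and 935 RPM after recovery, against 1289, 658 and 923 RPM at the end of HS, and 2406, 1543 and 903 RPM in control seedlings. Recovery replicates 2 and 3 lay close to the HS libraries of the same numbers. The miR408 guide sum was likewise at 6500, 1441 and 1786 RPM after recovery, against 2569, 1723 and 1363 RPM at the end of HS. The same library was high for the phosphate regulator miR399, with 3647, 875 and 542 RPM of guide after recovery, against 1348, 1152 and 531 RPM at the end of HS.

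Among nutrient miRNAs (miR395, miR399, miR827 and miR2111, 18 listed, 14 tested) 9 had a log2 fold change below 0 and the median was −0.36. All 6 miR395 entries, which regulate sulfate uptake and assimilation, were below 0. They are 3 copies of 1 sequence and 3 of another. miR395d was lower in 3 of 3 pairs, at 253.2, 241 and 225 RPM after recovery, against 519, 396.2 and 248 RPM at the end of HS, and 339, 213 and 163.5 RPM in control seedlings. Its log2 fold change of −0.74 ± 0.36 did not pass (edgeR adjusted p = 0.859).

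Of 144 late-numbered miRNAs (miR1886 and above, many with little evidence as miRNAs), 32 were tested. Their median was −0.35, 22 had a log2 fold change below 0, and 0 were called without the block. With the block on the 6 libraries alone 3 were called, miR2112-5p, miR3933 and miR8121. As a group they took 0.918%, 0.812% and 1.03% of miRNA reads after recovery, against 0.874%, 1.15% and 1.03% at the end of HS. The largest among them by reads, miR8175, has a mature sequence that also lies within an annotated tRNA sequence with CCA added at its end. It was at 5414, 2051 and 5398 RPM after recovery, against 3513, 3879 and 5340 RPM at the end of HS. miR8121 was lower in 3 of 3 pairs, at 19.9, 104 and 29.7 RPM after recovery, against 267, 226 and 39.3 RPM at the end of HS (log2 fold change −1.76 ± 0.83). miR3933 was at 48.4, 28.0 and 0 RPM after recovery, against 96.3, 154 and 0 RPM at the end of HS, and both replicate 3 libraries had no reads of it (log2 fold change −1.83 ± 1.73). miR5662 did not overlap between groups, at 8.53, 5.6 and 10.9 RPM after recovery, against 24.9, 16.3 and 23.0 RPM at the end of HS (log2 fold change −1.40 ± 0.59). miR5662 passed the filter on low counts through its HS libraries alone, so its selection favours a lower level after recovery. No role is given here for these 3. Of the 126 listed miRNAs in none of these groups, 56 were tested, 37 with a log2 fold change below 0 and a median of −0.17.

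**Figure D3:**
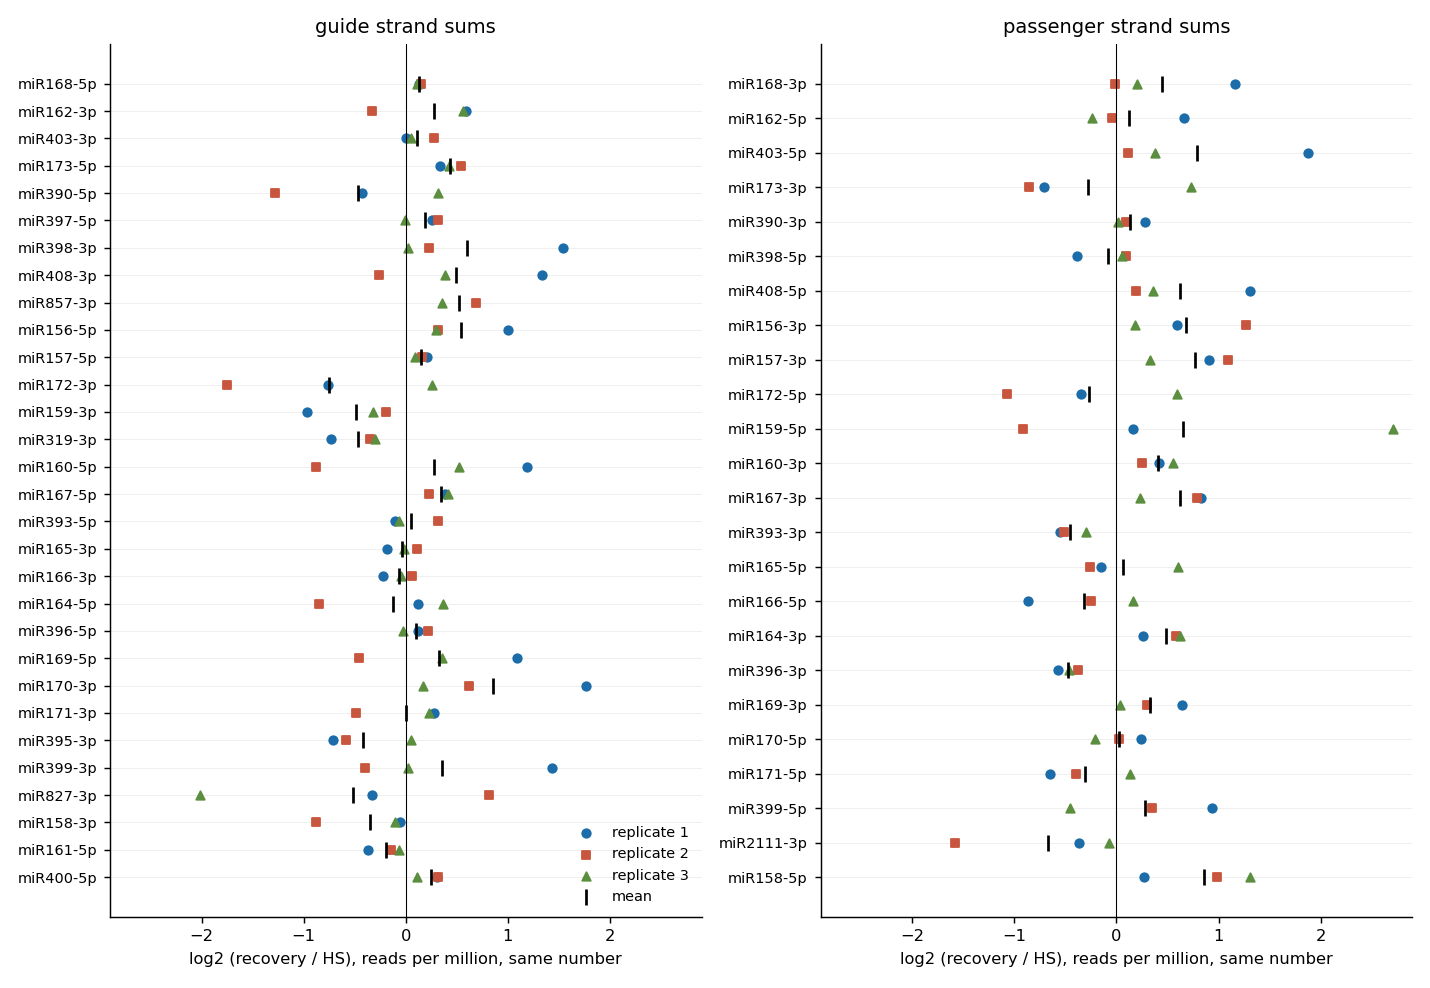
Log2 ratio of recovery over HS (horizontal axis, RPM of the same replicate number) for 30 guide sums and 24 passenger sums of the named families. Points are the 3 pairs and the tick is their mean, and miR857-3p has no point for pair 1 because HS replicate 1 had no reads. miR157-3p lies right of 0 and miR319-3p left of 0 in all pairs.

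Over the 54 strand sums of the named families, 19 were higher in 3 of 3 pairs and 7 were lower in 3 of 3 pairs. The share over all 136 strand sums tested was 21.3% higher and 19.1% lower in 3 of 3 pairs. Groups did not overlap for 2 of the 54, miR157-3p and miR173-5p, both above HS (3.68% of all sums lay above). Passengers were higher in all pairs in 10 of 24 sums and guides in 9 of 30. The direction of small differences depends on the scaling here, since the median log2 fold change of the sums by named arm was 0.13 with TMM factors and −0.03 with the median-ratio factors of DESeq2. TMM factors also differ between fits. Recovery replicate 1 had 0.80 and HS replicate 2 had 1.16 for strand sums, against 1.11 and 0.96 for single miRNAs. Fold changes of sums therefore tend to lie higher than those of their entries.

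A ratio of passenger to guide reads within a library is free of that scaling. Over the 24 families with both strands, there were 14.7, 12.5 and 12.4 passenger reads per 100 guide reads after recovery, against 11.6, 11.3 and 12.2 at the end of HS, and 16.5, 12 and 15.3 in control seedlings. Recovery was above HS in each pair and the groups did not overlap, by a narrow margin in pair 3. The difference was 0.17 on the log2 scale, with an exact two-sided permutation p of 0.1, the smallest that 3 against 3 libraries can give. It rests on miR157: with that family left out it was 0.015 on the log2 scale (exact permutation p = 0.9). It also leans on pair 1, since without recovery replicate 1 it was 0.09.

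Single families went both ways. Among 17 families with at least 300 passenger reads, the ratio was higher in 3 of 3 pairs for miR157 and miR158 and lower in 3 of 3 pairs for miR170, miR393 and miR396. For miR157 it was 41.5, 22.1 and 23.8 passenger reads per 100 guide reads after recovery, against 25.5, 11.6 and 20.3 at the end of HS. For miR158 it was 2.60, 3.79 and 3.29 after recovery, against 2.07, 1.05 and 1.24 at the end of HS, with no overlap. For miR396 it was 12.3, 20.8 and 18.9 after recovery, against 20.1, 31.3 and 25.5 at the end of HS, and for this family the groups overlapped. For miR393, whose reads lie nearly all on the strand taken here as the passenger, it was 4318, 4897 and 5060 after recovery, against 5898, 8663 and 5956 at the end of HS, with no overlap. Of the 17 families, the ratio thus lay above HS with no overlap in 1 and below HS with no overlap in 1.

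tasiRNA production from TAS1 and TAS2 is started by miR173, that from TAS3 by miR390 bound to AGO7, and that from TAS4 by miR828. miR173-5p (chr3:8236161-8236182, plus strand) was at 3539, 4515 and 3987 RPM after recovery, against 2811, 3109 and 2975 RPM at the end of HS, and 5117, 3690 and 5091 RPM in control seedlings. All recovery libraries were above all HS libraries. The log2 fold change was 0.60 ± 0.26 as a sum (edgeR adjusted p = 0.637) and 0.37 ± 0.26 as a single miRNA (edgeR adjusted p = 0.897), with the same reads and other scaling factors. miR390 guides were at 16529, 8180 and 4277 RPM after recovery, against 22282, 19866 and 3444 RPM at the end of HS, lower in 2 of 3 pairs (log2 fold change −0.34 ± 0.73).

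TAS reads numbered 26411, 118733 and 83821 after recovery, against 33519, 83872 and 97783 at the end of HS. Per 100 miRNA reads this came to 7.51, 16.6 and 13.1 after recovery, against 10.4, 17.0 and 13.3 at the end of HS, and 9.38, 9.34 and 13.4 in control seedlings. Recovery was lower in 3 of 3 pairs, by 0.47, 0.04 and 0.02 on the log2 scale, so that replicate 1 carries the difference. The groups overlapped (exact two-sided permutation p = 0.6).

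**Figure D4:**
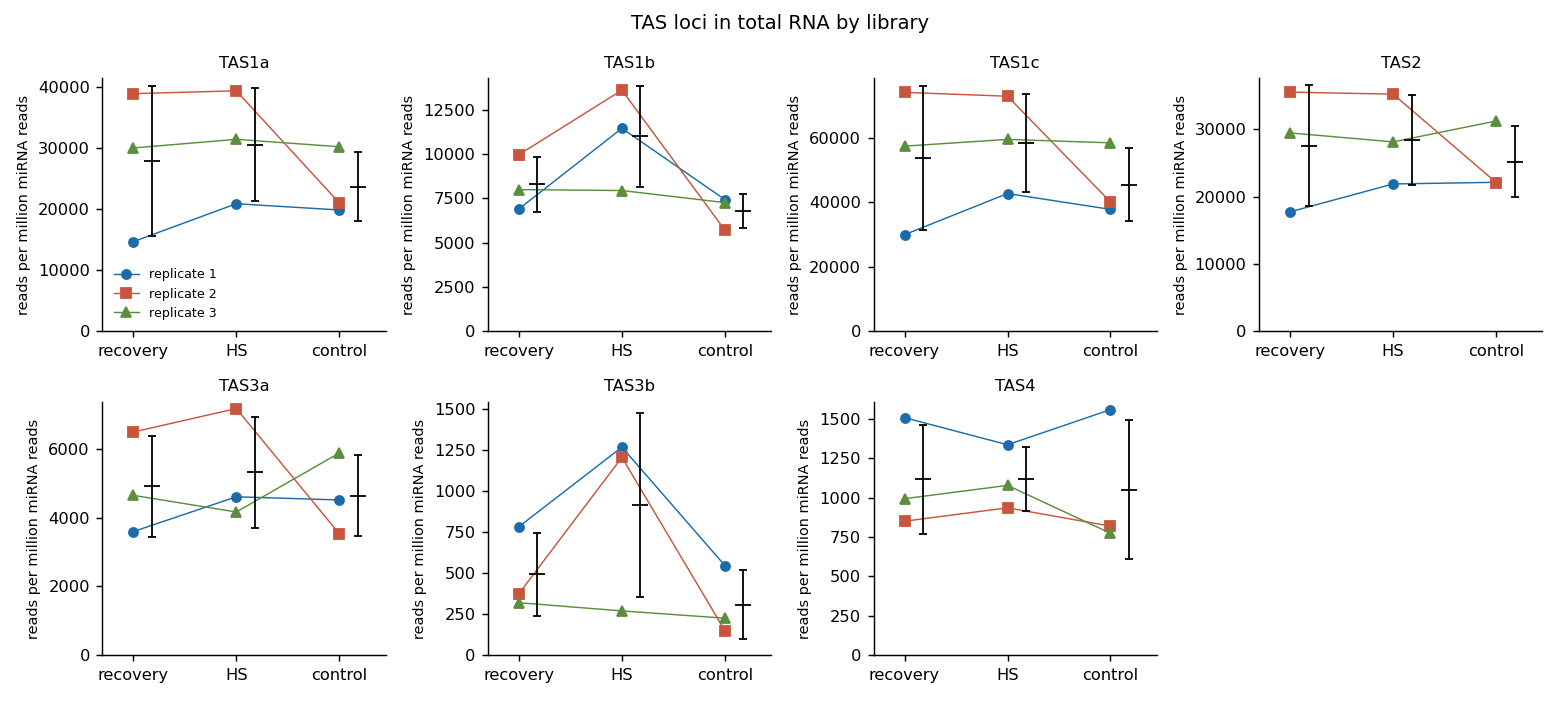
Level of each of the 7 TAS loci (RPM, vertical axis) in each library, recovery left, HS in the middle and control right. Points are libraries joined by replicate number, and the bar is the mean with its SD (n = 3). Recovery and HS overlap at all 7 loci, and TAS3b replicate 3 is far below replicates 1 and 2 in HS.

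All 7 loci were tested with the miRNAs in a single fit of 241 features, and 0 were called (0%, 9 of the 241 or 3.73% at an unadjusted p under 0.05). At TAS1c, the locus with the most reads, there were 29962, 74132 and 57439 RPM after recovery, against 42725, 72931 and 59539 RPM at the end of HS (log2 fold change −0.13 ± 0.38). TAS1a had 14651, 38881 and 29993 RPM after recovery, against 20866, 39348 and 31402 RPM at the end of HS (log2 fold change −0.14 ± 0.40). TAS2 had 17743, 35528 and 29467 RPM after recovery, against 21881, 35229 and 28134 RPM at the end of HS (log2 fold change −0.05 ± 0.33). At these 3 loci the pair of replicate 1 was clearly lower after recovery and the other pairs were nearly equal.

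TAS1b had 6896, 9956 and 7985 RPM after recovery, against 11441, 13593 and 7933 RPM at the end of HS (log2 fold change −0.41 ± 0.26, edgeR adjusted p = 0.857). TAS3a, the source of the siRNAs against auxin response factors, had 3593, 6494 and 4650 RPM after recovery, against 4607, 7179 and 4163 RPM at the end of HS. TAS3b had 782, 374 and 318 RPM after recovery, against 1267, 1205 and 268 RPM at the end of HS, with the widest log2 fold change of the loci at −0.90 ± 0.60 (edgeR adjusted p = 0.857). TAS4, whose siRNAs target MYB genes of anthocyanin synthesis, had 1508, 850 and 993 RPM after recovery, against 1336, 935 and 1077 RPM at the end of HS. TAS3b and miR390 were both lowest in the replicate 3 libraries, in recovery and in HS, and a link was not tested. In control seedlings TAS3b was lowest in replicate 2, at 545, 148 and 224 RPM. TAS3a was lowest in replicate 1 after recovery.

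The start of phased cutting can be read from the sequence. miR173 pairs with TAS1c on the minus strand at chr2:16537890-16537911, and the same 22 bases occur in TAS1a. The capitals in the site below are the bases on either side of the predicted cut, and the first sense tasiRNA after the cut and the antisense one called in the block fit are shown beneath it.
TAS1c site of miR173: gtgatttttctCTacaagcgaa
TAS1c sense 379: tacaagcgaatagaccattta
TAS1c antisense 380: ataaatggtctattcgcttgt
TAS2 sense 418: tccaagcgaatgatgatactt
TAS3a sense 695: ttcttgaccttgtaaggcctt

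Positions were counted by their first transcript base, and 646 of 6242 passed the filter on low counts. The 21-nt register with the most reads was that set by the cut at TAS1a, TAS1b, TAS1c, TAS2 and TAS4, which is 5 of 7 loci. The cut was taken at the best-pairing site of each locus, with registers numbered by the remainder of position over 21. At TAS3a the register with the most reads was 2, against 11 for that site and 3 for the next-best site. At TAS3b it was 13, against 18 and 3. Which TAS3 site is cut was not tested. At TAS1c 49.1%, 65.4% and 67.2% of reads were in this register after recovery, against 46.0%, 54.9% and 66.2% at the end of HS, higher in 3 of 3 pairs. At TAS2 it was 47.4%, 49.7% and 52.5% after recovery, against 40.8%, 46.2% and 52.8% at the end of HS. No difference passed at any of the 7 loci, with exact permutation p-values from 0.5 to 1 and all at 1 after adjustment over the loci. None could have passed, since the smallest p that 3 against 3 libraries can give in this test is 0.1. Here too the spread between replicates was wider than that between treatments, from 12.5% to 66.2% within HS at TAS3b.

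Without the block 0 of 646 positions were called (0%, 19 or 2.94% at an unadjusted p under 0.05), and with it 1 was called (0.155%). That position, TAS1c antisense 380 (chr2:16537878-16537898), had 0, 34 and 12 reads per 1000000 TAS reads after recovery, against 209, 310 and 245 at the end of HS, and 47, 30 and 17 in control seedlings. The position passed the filter on low counts through its HS libraries alone, so its selection favours a fall after recovery. It lies out of register, 1 base from the start of the first sense tasiRNA. The counts were 0, 4 and 1 reads after recovery, against 7, 26 and 24 reads at the end of HS. Its log2 fold change was −3.51 ± 0.72 (edgeR adjusted p = 0.25), and with the block it fell by 3.58 ± 0.75 on the log2 scale (edgeR adjusted p = 0.0168). Without pair 2 or pair 3 the block fit no longer called it (edgeR adjusted p = 0.0926 and 0.274).

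On the other strand, TAS1c sense 379, the first base after the cut, had 8103, 3142 and 4879 reads per 1000000 TAS reads after recovery, against 1402, 2814 and 3395 at the end of HS. It was higher in 3 of 3 pairs and overlapped between groups (log2 fold change 1.01 ± 0.42, edgeR adjusted p = 0.915). It was among 3 of 560 positions called when the block was fitted on the 6 libraries alone (0.536%), with TAS1c antisense 380 and TAS2 sense 545. TAS2 sense 545 was out of register and did not overlap, at 1477, 2274 and 1778 reads per 1000000 TAS reads after recovery, against 716, 870 and 1381 at the end of HS. The position of the same kind at TAS2, sense 418, had 37901, 23591 and 32617 after recovery, against 18318, 19196 and 27264 at the end of HS, also higher in 3 of 3 pairs (log2 fold change 0.52 ± 0.30). At TAS4, sense 888 had 5263, 1819 and 2851 after recovery, against 3908, 2134 and 3395 at the end of HS, higher in 1 of 3 pairs. TAS3a sense 695, which yields the siRNA directed at auxin response factors, had 492, 168.4 and 155 after recovery, against 90, 107 and 61 at the end of HS. The groups did not overlap, on 13, 20 and 13 reads after recovery and 3, 9 and 6 at the end of HS (log2 fold change 1.51 ± 0.58, edgeR adjusted p = 0.915). This position passed the filter on low counts through recovery and control libraries, and not through any HS library.

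**Figure D5:**
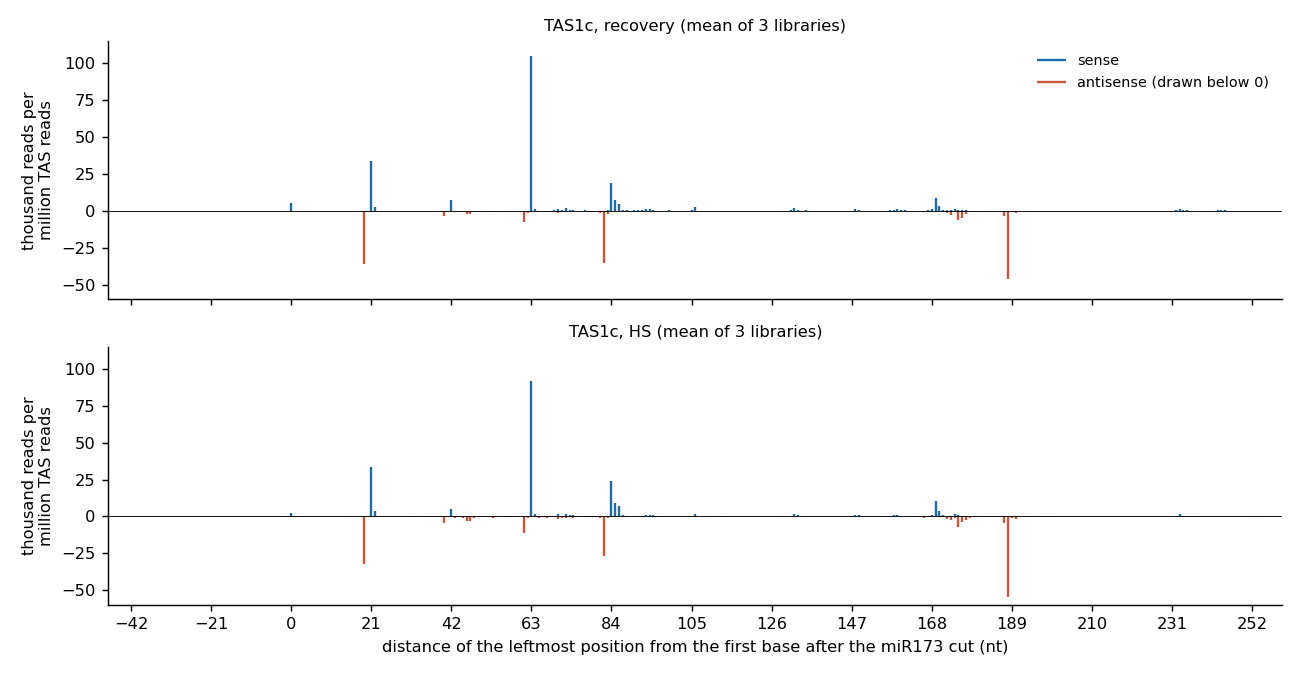
Reads starting at each TAS1c position per 1000000 TAS reads (vertical axis), by distance in bases from the first base after the miR173 cut (horizontal axis), with sense reads above 0 and antisense reads below 0. Recovery is the upper panel and HS the lower, each a mean of 3 libraries. In both, the tallest peak is sense 442, 63 bases from the cut.

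The tallest TAS1c position, sense 442, is in register and had 60694, 121996 and 133344 reads per 1000000 TAS reads after recovery, against 47674, 97148 and 131424 at the end of HS. It was higher in 3 of 3 pairs and the groups overlapped (log2 fold change 0.21 ± 0.47). Of the 88 tested positions in register over the 7 loci, 56 had a log2 fold change above 0, with a median of 0.14. Of the 558 out of register, 265 were above 0, with a median of −0.04. Positions of different loci can share a siRNA: TAS1a antisense 482 and TAS1b antisense 477 have the same 21 bases, and both were lower in 3 of 3 pairs. TAS1a antisense 482 had 2915, 2274 and 1563 reads per 1000000 TAS reads after recovery, against 4863, 4090 and 2710 at the end of HS (log2 fold change −0.78 ± 0.36). Recovery did not overlap HS at 38 positions above (5.88%) and 20 below (3.1%).

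None of the other positions with small p-values was called without the block, with it, or with it on the 6 libraries alone, and 5 of them were higher after recovery in at least 2 pairs. The TAS1c antisense position 20 bases from the first base after the cut (chr2:16537859-16537879) had 114, 194 and 143 reads per 1000000 TAS reads after recovery, against 29.8, 59.6 and 30.7 at the end of HS (log2 fold change 1.90 ± 0.60). TAS1c sense 485 had 2499, 2021 and 2422 after recovery, against 1313, 1550 and 1370 at the end of HS (log2 fold change 0.71 ± 0.28). TAS2 sense 486 had 227, 92.6 and 107 after recovery, against 0, 47.7 and 40.9 at the end of HS. At these 3 positions the groups did not overlap, and the first and the third rest on few reads. The first and the third passed the filter on low counts through recovery and control libraries, and not through any HS library. TAS2 sense 481, in register, was higher in 3 of 3 pairs, at 12003, 6628 and 10272 after recovery, against 4535, 5043 and 7210 at the end of HS. TAS1b antisense 544 was higher in 2 of 3 pairs, at 568, 67.4 and 155 after recovery, against 59.7, 71.5 and 40.9 at the end of HS, and recovery replicate 1 stood far above the rest. It too passed the filter through recovery and control libraries, and not through any HS library.

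Positions on the lower side were each lower in 3 of 3 pairs. TAS1c antisense 421 had 37.9, 84.2 and 119 reads per 1000000 TAS reads after recovery, against 448, 274 and 194 at the end of HS, with no overlap. TAS1b antisense 477 had 2310, 1524 and 716 after recovery, against 4028, 3422 and 972 at the end of HS. TAS1b sense 543 had 19764, 7765 and 2040 after recovery, against 32161, 15536 and 2475 at the end of HS. In both, replicate 3 was low in either group and the groups overlapped. TAS2 sense 583 had 1098, 463 and 95.4 after recovery, against 1343, 1371 and 256 at the end of HS. TAS1b sense 429 had 75.7, 84.2 and 71.6 after recovery, against 239, 298 and 81.8 at the end of HS. TAS1b antisense 460 had 75.7, 25.3 and 35.8 after recovery, against 269, 143 and 51.1 at the end of HS. The groups overlapped at these 3 positions as well. TAS1b sense 429 and TAS1b antisense 460 passed the filter on low counts through HS and control libraries, and not through any recovery library.

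At the positions with the most reads in TAS1a, TAS1b, TAS3a and TAS3b, the means of recovery and HS differed by less than the SD between replicates. At TAS2 that position is sense 418, given above, where the means differed by more than the SD. They were 31370 (SD 7236) after recovery and 21593 (SD 4931) at the end of HS. TAS1a sense 526 had 22226, 53296 and 47256 reads per 1000000 TAS reads after recovery, against 20466, 52437 and 48280 at the end of HS. TAS1b sense 542 had 18780, 17097 and 25888 after recovery, against 20764, 16716 and 26641 at the end of HS. TAS3a sense 653 had 1439, 7824 and 6526 after recovery, against 1253, 6212 and 6238 at the end of HS, with replicate 1 low in both groups. TAS3b antisense 221 had 909, 303 and 1193 after recovery, against 328, 858 and 1135 at the end of HS.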

How the data were processed

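Total RNA of whole seedlings went into small RNA libraries (RealSeq v2 kit). Per the labels and the submitters' processing notes, the authors trimmed reads with cutadapt 2.9 and mapped them with Bowtie2 to TAIR10. The deposited tables hold raw read counts for each listed miRNA and each TAS position. How reads that fit several copies were placed is not given in the sources used here. No column of the tables was left out (0 unused).

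edgeR 4.0.16 (quasi-likelihood test, TMM factors, filterByExpr, R 4.3.3) was fitted to the 9 total RNA libraries without a block, with Benjamini-Hochberg adjustment at 0.05, and scripts were tested on simulated data. Library sizes were miRNA reads, or miRNA plus TAS reads for loci. Deviations of same-numbered recovery and HS libraries correlated at 0.681, 0.547 and 0.867 across miRNAs (highest for different numbers 0.196), and in 9 of 9 libraries the closest match had the same number. The numbers are therefore taken to pair the libraries, and block values are given where they change a call. This pairing comes from the data, not from the labels. Levels are per 1000000 miRNA reads with no scaling factor. Single values were compared by exact permutation. DESeq2 1.42.0 and limma 3.58.1 were used, the first as an alternative and the second as a dependency of edgeR. Sequences and arms came from RefSeq TAIR10.1. A miRNA or position was named in the report if its p was among the 10 smallest without or with the block (5 in each direction for positions), if the study gives it as changed, or if it is among those with the most reads. Family strand sums of the functional lists and all loci were also named. miR168a-3p, miR158a-3p, miR157c-3p, miR156f-3p, miR159b-3p, miR319b, miR172c and miR3933 were chosen after their values were seen where that rule does not hold them. Strand sums with the arm taken from the precursor were added after seeing the data. Members and lists were chosen with earlier results of these data known. Alternatives were other scaling, filters, libraries, DESeq2, the block and leaving out each library.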

Additional observations from a re-analysis of the deposited data

Results flagged for a closer look

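The change of miR8175 differed between total RNA and the AGO1 immunoprecipitates in a test of the difference itself, added after seeing the data. In total RNA it was at 5414, 2051 and 5398 RPM after recovery, against 3513, 3879 and 5340 RPM at the end of HS. In AGO1 immunoprecipitates it was at 242, 21.5 and 106 RPM after recovery, against 15.7, 14.9 and 16.0 RPM at the end of HS. The log2 fold change in total RNA minus that in AGO1 immunoprecipitates was −2.41 ± 0.55 with the replicate block (edgeR adjusted p = 0.0332 over 175 sums by family and arm). It was the only one of the 175 sums called with the block, and 0 sums and 0 of 269 miRNAs were called without it. As a single miRNA, with the block, the difference for miR8175 was −2.30 (edgeR adjusted p = 0.0793).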

How the results depend on the processing

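Without the block, the count of called miRNAs, sums, sequences, loci and positions was 0 under every alternative run (scaling, filter, library size, DESeq2, other libraries, leaving out any library). With the replicate block 3 sums (2 by precursor arm), 5 sequences and 1 position were called, and the block changed no other call. With the block on the 6 libraries alone, 11 miRNAs, 9 sums (7 by precursor arm), 3 sequences and 3 positions were called. With the block in DESeq2, 2 sums and 6 positions were called, each of these positions with reads in a single one of the 6 libraries. With the block and pair 1 left out, 3 miRNAs, 4 sums, 3 sequences and 1 position were called, with pair 2 left out 6 sums and no miRNA, sequence or position, and with pair 3 left out 0 of each. The passenger to guide difference was 0.015 without miR157 and 0.32 without miR396.

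Of 714 log2 fold changes of single miRNAs, sums, loci and positions under alternatives that left out no recovery or HS library, 10 turned direction. These were miR396a-5p (0.014 on the 6 libraries alone, 0.0074 with no scaling factor, 0.017 with no filter, 0.031 with the block on the 6 libraries), miR172e-5p (0.046 with that block), miR159b-5p (−0.056 with a mean of at least 50 counts), miR8175 (0.014) and TAS4 (0.023) with no scaling factor and TAS2 (0.036) and TAS4 (0.042) with no filter. The in-register share of TAS2 also turned (−0.17 percentage points with 1 nt to either side).

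Of 779 such log2 fold changes with a library or pair left out, 32 turned direction. With a library left out, the log2 ranges were −0.048 to 0.22 (miR157d), −0.55 to 0.62 (miR159b-5p), −0.49 to 0.075 (miR161.2), −0.11 to 0.80 (miR164b-3p), −0.46 to 0.33 (miR172e-5p), −0.12 to 0.070 (miR396a-5p), −0.31 to 0.25 (miR8175), −1.28 to 0.089 (miR390-5p sum), −0.51 to 0.19 (TAS1a), −0.47 to 0.19 (TAS1c), −0.32 to 0.22 (TAS2), −0.42 to 0.21 (TAS3a), −0.23 to 0.12 (TAS4), −1.65 to 0.0055 (TAS1b sense 543) and −0.42 to 0.15 (TAS to miRNA reads, highest without recovery replicate 1). With the block and a pair left out, direction turned for miR159b-5p (−0.31), miR396a-5p (0.18) and TAS4 (0.048) without pair 3, for miR172e-5p (0.34) and miR8175 (0.21) without pair 2 and for miR164b-3p (−0.19) without pair 1. In-register shares ranged from −3.29 to 3.09 percentage points (TAS1a), −0.19 to 15.5 (TAS1b), −2.05 to 8.28 (TAS3a), −12 to 16.6 (TAS3b) and −3.25 to 3.65 (TAS4). The causes were not tested. Low miRNAs such as miR865-5p, with 2 HS reads, are limited by depth.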

Other observations

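By first base, most miRNAs that begin with A had lower levels after recovery, a description of a pattern noticed in the data and not tested. Of 41 tested miRNAs with a 5′ A, 33 had a log2 fold change below 0, with a median of −0.53, against 62 of 136 with a 5′ U, 12 of 25 with a 5′ C and 14 of 27 with a 5′ G. Without the late-numbered miRNAs, miR172 and miR390, 16 of 20 with a 5′ A were below 0. By reads, miRNAs with a 5′ A took 4.96%, 4.29% and 2.92% of miRNA reads after recovery, against 6.29%, 7.15% and 3.0% at the end of HS, and 4.49%, 2.97% and 3.03% in control seedlings. They were lower after recovery in 3 of 3 pairs, and the groups overlapped. Without miR172 and miR390 the shares were 2.63%, 3.11% and 2.47% after recovery, against 2.93%, 3.91% and 2.64% at the end of HS. Several of these miRNAs are low and 0 of the 41 were called without the block. In Arabidopsis, miRNAs with a 5′ A are known to be bound by AGO2 and AGO4, and no such binding was measured here.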
